A study of Mus musculus with 16 samples.

Results

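In the mouse myoblast line C2C12, 66 genes were far lower in Fam134bKO than in wild-type (WT) cells both before and after differentiation. They were chosen by their measured values: the mean of the log2 values was at least 2 higher in WT than in Fam134bKO myoblasts and at least 2 higher in WT than in Fam134bKO myotubes, and the mean normalized count was at least 20 in both WT groups. Genes whose symbol begins with Col, Hist, Hox, Zfp, Kcn, Slc, Myh, Myl, Tnn, Act or Chrn were left out, which removed Mylk2, Mylk4, Tnni2, Tnnt3, Zfp422 and Zfp810. The 66 genes are part of 31053 genes in the table and of the 10767 tested, that is, those with 4 or more of the 16 samples at a normalized count of 10 or above. All 66 passed that filter, and each was at 10 or above in all 8 WT samples, while 28 reached 10 in 4 or more Fam134bKO samples. Since both genotype contrasts in all 16 samples chose these genes, their WT and Fam134bKO values are given as a description, without a test.

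The study followed C2C12 cells, which grow as myoblasts and fuse into myotubes when they reach confluence, and asked what the loss of Fam134b, a receptor for the autophagy of endoplasmic reticulum (ER-phagy), changes before and after differentiation. mRNA was sequenced in 4 samples each of WT myoblasts (WT_UNDIFF), Fam134bKO myoblasts (KO_UNDIFF), WT myotubes (WT_DIFF) and Fam134bKO myotubes (KO_DIFF), which the labels number as biological replicates. According to the methods, the knockout line was made with a lentiviral vector that carried Cas9 and took a pair of guide RNAs, followed by antibiotic selection. Which of the 4 guide RNAs listed in the paper the line received, and whether it is a single clone, is not given in the sources used here. All groups were grown in DMEM with fetal bovine serum, and differentiation was spontaneous. The genotype and stage of each sample come from its title, since the genotype field of the labels reads "unknown". All knockout samples come from 1 line as far as the labels and methods say, so the loss of Fam134b and any other property of that line cannot be told apart.

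Muscle cells are built in a fixed order: the bHLH factors Myod1 and Myf5 keep a cell committed as a myoblast, Myog and the Mef2 factors switch on differentiation, and the genes of the sarcomere, of calcium release and of oxygen storage follow. Growth and survival signals accompany this programme, among them the insulin-like growth factor (IGF) axis, the imprinted genes H19 and Mest, Notch targets that hold cells back, and cell surface molecules that act in recognition and fusion. The 66 genes come from many of these layers and from others that have little to do with muscle, so they are described by role below. The roles were assigned after the values were known.

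Gene counts summed to 2926807 to 3287461 reads per sample in Fam134bKO myoblasts, 1484750 to 2947336 in Fam134bKO myotubes and 2686680 to 3226387 in the WT groups. Replicates 2 and 4 of Fam134bKO myotubes were the shallowest, and 1 read there stands for a normalized count of 1.46 and 2.0 respectively. The summed level of 10 myoblast and myotube markers was 2469 to 3672 in WT and 285 to 384 in Fam134bKO myoblasts, and 22856 to 34338 in WT and 9779 to 12673 in Fam134bKO myotubes, so the Fam134bKO samples lay below the WT samples at both stages, and the myotubes of each genotype above its myoblasts. Of the 10 markers, 9 passed as lower in Fam134bKO myoblasts and 7 in myotubes (adjusted p under 0.05, limma). Myog, the factor that starts differentiation, had a mean of 114 in WT myoblasts and was at 0 in every Fam134bKO myoblast sample. Myf5 had means of 71.1 in WT and 114 in Fam134bKO myoblasts (adjusted p = 0.0955, limma). In myotubes its means were 71.6 and 64.9 (0.615). The summed level of 10 fibroblast markers was 87.3 to 138 in WT and 476 to 911 in Fam134bKO myoblasts, and 137 to 319 in WT and 545 to 646 in Fam134bKO myotubes, with Tcf21 at 0 throughout. Most of the myoblast difference was Ly6a, with a mean of 49.5 in WT and 691 in Fam134bKO myoblasts. Without Ly6a the sum was 45.5 to 79.4 in WT and 29.9 to 59.9 in Fam134bKO myoblasts, which overlapped, and 83.7 to 229 in WT and 216 to 406 in Fam134bKO myotubes. Cd34 was lower in Fam134bKO cells, by a log2 difference of -3.18 in myoblasts (adjusted p = 1.7e-07, limma) and -1.11 in myotubes (0.015). Of the 5 fibroblast markers tested, 1 passed as lower and 1 as higher in Fam134bKO myoblasts, and 1 and 3 in myotubes. Summed adipocyte markers were at 75.7 to 97.1 in WT and 129 to 176 in Fam134bKO myoblasts. In myotubes they were at 109 to 202 and 214 to 451. Only 3 of these 7 markers had more than 3 reads in any sample of a group, and Adipoq and Plin1 were at 0 throughout. Of the 3 tested, 2 passed as higher in Fam134bKO myoblasts and 1 in myotubes. Summed bone and cartilage markers were at 438 to 495 in WT and 658 to 1103 in Fam134bKO myoblasts. In myotubes they were at 295 to 491 and 381 to 885. Only 2 of these 8 markers had more than 3 reads in any sample of a group, and Alpl and Ibsp were at 0 throughout. Of the 2 tested, 1 passed as higher in Fam134bKO cells at each stage. These sums thus rest on few genes. The part of these markers in the results below was not tested.

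The 66 genes gave few or no reads in many Fam134bKO myoblast samples and were low in Fam134bKO myotubes. In myoblasts, the Fam134bKO mean was 0% to 27.9% of the WT mean, with a median of 5.73%, and in myotubes it was 2.32% to 29.0%, with a median of 14.8%. On the log2 scale the median difference between WT and Fam134bKO was 3.81 in myoblasts (range 2.01 to 6.67) and 2.87 in myotubes (2.0 to 4.75), against medians of 0.01 and 0.07 over all 10767 genes tested. A log2 value here is the log2 of the normalized count plus 1, so differences from a group near 0 are understated. In bulk samples, fewer cells that express a gene and less RNA per cell cannot be told apart. For all 66 genes, the highest Fam134bKO sample lay below the lowest WT sample at both stages. Such a gap was found in 14.0% of all genes tested in myoblasts and in 10.8% in myotubes, and nothing is read from the members' count, since the rule used these contrasts.

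**Figure D1:**
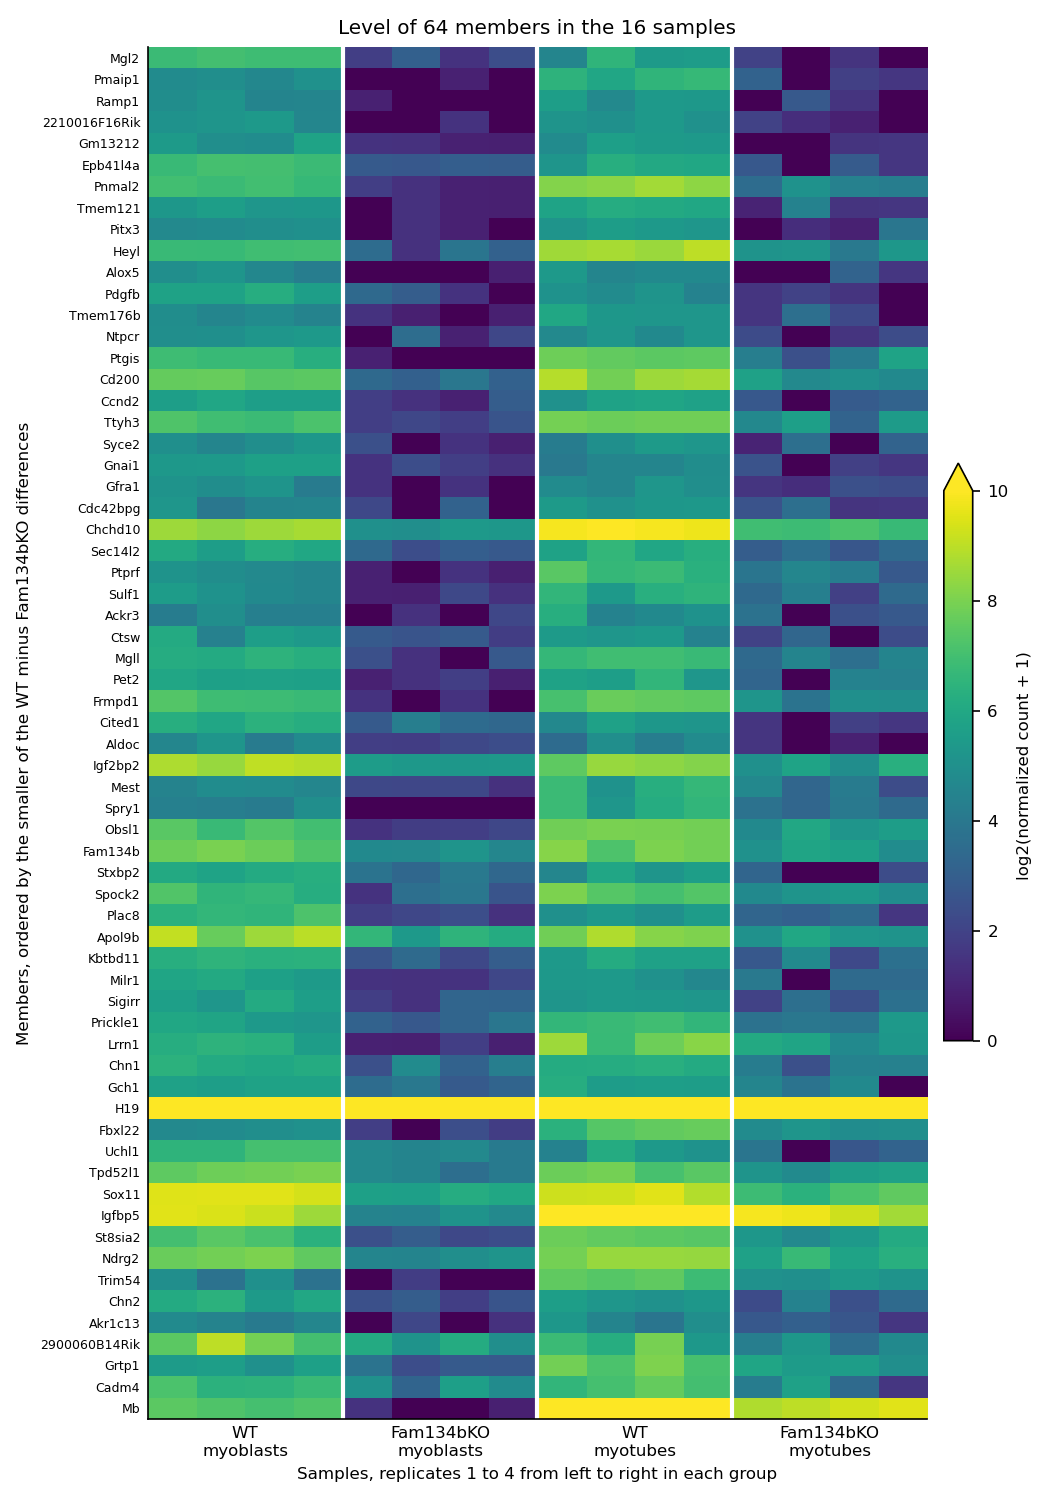
Level of 64 of the 66 members (rows) in the 16 samples (columns, 4 per group), as log2 of the normalized count plus 1; dark cells are low, and values above 10 share the brightest colour. The Fam134bKO columns are darker than the WT columns of the same stage in every row but that of H19, which lies above 10 in all 16 samples, and the Fam134bKO myotube columns are lighter than the Fam134bKO myoblast columns in rows such as Mb, Igfbp5 and Ptgis.

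The difference was larger in myoblasts for 54 of the 66 genes and larger in myotubes for 12. It reached 3 at both stages for 20 genes and 4 at both stages for 7 genes, and for 29 genes the smaller of the stage differences was under 2.5. In Fam134bKO myoblasts, 19 genes had at most 3 reads in every sample, 1 of which, Spry1, had 0 reads in all 4. In Fam134bKO myotubes, 6 genes had at most 3 reads in every sample. At the edge of the rule lay Mb and Cadm4, with a smaller difference of 2.0 and 2.01, and just outside it lay Lrrc8d, Alpk2 and Nipsnap1 with 2.0, 1.99 and 1.99, where Lrrc8d stays below 2 before rounding. Igf2, at 1.97 in myotubes, was also just outside.

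**Figure D2:**
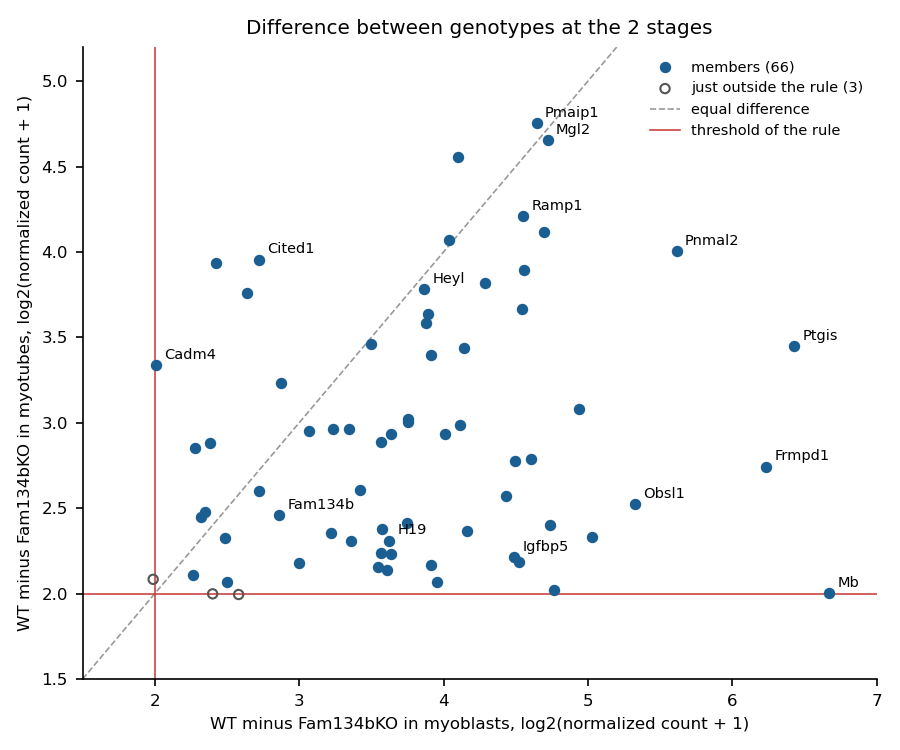
Difference of the group means, WT minus Fam134bKO, in myoblasts (horizontal) and in myotubes (vertical), on the scale of log2(normalized count + 1), for the 66 members and the 3 genes just outside the rule. Most points lie right of the line of equal difference, and Mb lies at the lower right with 6.67 in myoblasts and 2.0 in myotubes.

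Fam134b itself, the gene targeted in the knockout (Ensembl ENSMUSG00000022270, also named Retreg1, chr15:25843180-25973687 in mm10), was a member. Its normalized count was 214, 251, 213 and 150 in WT and 26.2, 24.9, 35.6 and 23.4 in Fam134bKO myoblasts. It was 287, 146, 263 and 232 in WT and 31.9, 56.9, 50.4 and 28 in Fam134bKO myotubes. The 8 Fam134bKO samples lay below the 8 WT samples, and the Fam134bKO mean was 13.3% of WT in myoblasts and 18.0% in myotubes, so reads from the locus remained in every knockout sample. Reads do not show whether protein is made, and by western blot the paper reports that the protein was absent from Fam134bKO myotubes. Neither genotype changed the gene-level count of Fam134b past the threshold between stages (adjusted p = 0.738 in WT and 0.106 in Fam134bKO, limma). The count is per gene, so the isoforms Fam134b1 and Fam134b2 were not told apart. The paper reports opposite trends for them during differentiation, with Fam134b1 protein falling and Fam134b2 transcription rising.

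The 7 genes with a difference of at least 4 at both stages were Mgl2, Pmaip1, Ramp1, 2210016F16Rik, Gm13212, Epb41l4a and Pnmal2. Mgl2, a C-type lectin known from macrophages and dendritic cells (chr11:70130329-70137550), had normalized counts of 112, 129, 118 and 119 in WT and 2.62, 7.47, 1.74 and 4.17 in Fam134bKO myoblasts. In myotubes it was at 22.4, 92.7, 42.8 and 44.6 in WT and at 2.9, 0, 1.8 and 0 in Fam134bKO. The WT samples were thus high at both stages while no Fam134bKO sample held more than 9 reads. Pmaip1 encodes Noxa, a BH3-only protein that promotes apoptosis and is a classic p53 target. It was at 27.7, 29.9, 24 and 32.1 in WT and 0, 0, 0.868 and 0 in Fam134bKO myoblasts, and at 88.1, 59.4, 92 and 102 in WT and 7.75, 0, 2.7 and 2.0 in Fam134bKO myotubes. Ramp1, which turns the calcitonin receptor-like receptor into a receptor for the neuropeptide CGRP, was at 28.6, 34.7, 22 and 22.3 in WT and 0.875, 0, 0 and 0 in Fam134bKO myoblasts. In myotubes Ramp1 was at 48.3, 25.2, 41.8 and 39.6 in WT and at 0, 5.84, 1.8 and 0 in Fam134bKO, where replicate 2 held 4 reads and replicates 1 and 4 held 0.

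Epb41l4a, a FERM-domain protein of the band 4.1 family, was at 110, 133, 127 and 113 in WT and 6.12, 5.81, 6.94 and 6.67 in Fam134bKO myoblasts. It was at 36.3, 76.5, 65.1 and 61.4 in WT and 5.81, 0, 6.3 and 2.0 in Fam134bKO myotubes. The level in WT cells was lower in myotubes than in myoblasts in all 4 samples, while the Fam134bKO samples stayed under 7 at both stages. Pnmal2, a member of the paraneoplastic antigen family derived from retrotransposons, was at 126, 111, 126 and 104 in WT and 2.62, 1.66, 0.868 and 0.834 in Fam134bKO myoblasts and at 280, 305, 393 and 312 in WT and 10.6, 33.6, 19.8 and 18 in Fam134bKO myotubes. The little characterised gene 2210016F16Rik was at 33.2, 35.7, 40 and 23.2 in WT and 0, 0, 1.74 and 0 in Fam134bKO myoblasts and at 35.4, 31.5, 40.9 and 32.7 in WT and 2.9, 1.46, 0.90 and 0 in Fam134bKO myotubes, with a similar level at both stages of WT cells. Gm13212 was at 42.4, 29.9, 28 and 54.4 in WT and 1.75, 1.66, 0.868 and 0.834 in Fam134bKO myoblasts and at 27.6, 48.6, 42.8 and 40.6 in WT and 0, 0, 1.8 and 2.0 in Fam134bKO myotubes. Its reads are uncertain, since 51.3% of the stretches of 31 bases in the last 500 bases of its transcript also occur in other genes, among them Zfp984 and Zfp758.

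For 51 of the 66 genes the RefSeq promoter table (GRCm38.p6, 250 bases before to 50 after the first listed start) holds a sequence, and 3 of the 10 genes with the largest differences hold the E-box CAGCTG there, the variant that Myod1 and Myog favour. Of the same 10 genes, Pmaip1, Epb41l4a and Heyl have no sequence in the table, and Ramp1, 2210016F16Rik, Gm13212 and Tmem121 have one without CAGCTG. The 3 promoters shown were picked because they hold it. They are Mgl2 (chr11:70130107-70130406 on the plus strand), Pnmal2 (chr7:16944432-16944731 on the plus strand) and Pitx3 (chr19:46148276-46148575 on the minus strand), written 5′ to 3′ on the strand of the gene, with CAGCTG in capitals:
Mgl2: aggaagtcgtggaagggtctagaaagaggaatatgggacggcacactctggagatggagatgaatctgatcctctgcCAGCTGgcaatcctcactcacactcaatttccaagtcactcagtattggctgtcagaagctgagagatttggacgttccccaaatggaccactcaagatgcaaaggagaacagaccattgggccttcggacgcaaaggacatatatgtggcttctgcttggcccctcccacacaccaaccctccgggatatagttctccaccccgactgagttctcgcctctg
Pnmal2: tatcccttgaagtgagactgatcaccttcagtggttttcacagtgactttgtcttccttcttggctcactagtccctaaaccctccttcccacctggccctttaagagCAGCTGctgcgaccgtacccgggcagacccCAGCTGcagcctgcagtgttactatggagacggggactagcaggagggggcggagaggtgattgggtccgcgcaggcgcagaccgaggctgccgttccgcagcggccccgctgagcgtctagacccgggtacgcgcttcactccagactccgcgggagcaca
Pitx3: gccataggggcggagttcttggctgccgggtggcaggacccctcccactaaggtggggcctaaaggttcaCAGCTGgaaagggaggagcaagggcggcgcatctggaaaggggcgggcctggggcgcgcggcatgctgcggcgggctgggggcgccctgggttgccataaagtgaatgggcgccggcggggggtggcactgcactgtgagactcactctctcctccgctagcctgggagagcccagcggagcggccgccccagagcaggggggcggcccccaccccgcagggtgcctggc

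Pnmal2 holds 2 copies of CAGCTG and the others 1 each. Searched on both strands, CAGCTG was found in 15 of the 51 member promoters (29.4%), in 14.9% of the 8525 promoters of tested genes and in 16.1% of all 27025 promoters in the table. The other 12 are Apol9b, Cited1, Frmpd1, Gfra1, Gnai1, Lrrn1, Mest, Milr1, Obsl1, Sec14l2, Sox11 and Trim54. The general E-box CANNTG, of which CAGCTG is a case, was found in 72.5% of member promoters, against 61.5% of those of tested genes and 72.1% of all. TATAAA was found in 4 member promoters (7.84%, against 6.63% and 14.2%), and TAAAAATA, a core of the Mef2 motif, in 0 of 51 (against 1.18% and 2.71%). A match gives the letters only, and binding of a factor was not measured. Among the 15 members with no entry in the table were Ccnd2, Cdc42bpg, Ctsw, Epb41l4a, H19, Heyl, Kbtbd11, Pdgfb, Pet2, Pmaip1, Ptgis, Sigirr and Sulf1.

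The imprinted genes and the IGF axis gave 4 members: H19, Mest, Igfbp5 and Igf2bp2. H19 is a maternally expressed long non-coding RNA next to Igf2 and the host of miR-675 (chr7:142575529-142578143). It was at 43313, 39556, 41261 and 43460 in WT and 2941, 3951, 3322 and 3460 in Fam134bKO myoblasts, and at 83527, 127916, 117888 and 124757 in WT and 21313, 17933, 20251 and 33514 in Fam134bKO myotubes. It took 1.54% ± 0.0678 (SD, n = 4) of all gene reads in WT myoblasts, 0.130% ± 0.0126 in Fam134bKO myoblasts, 4.16% ± 0.636 in WT myotubes and 0.845% ± 0.196 in Fam134bKO myotubes. H19 was thus abundant in all 4 groups, and its difference was 3.62 in myoblasts and 2.31 in myotubes. With quantile normalization, which gives every sample the same set of values, the difference was 3.13 and 1.15, and in myotubes H19 was then outside the rule.

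Igfbp5, a secreted IGF-binding protein that rises in differentiating myoblasts, was at 750, 683, 583 and 367 in WT and 21, 20.8, 33.8 and 25 in Fam134bKO myoblasts. It was at 4123, 1710, 3742 and 3331 in WT and 928, 868, 599 and 390 in Fam134bKO myotubes. The Fam134bKO myotubes overlapped with the WT myoblasts. Igf2bp2, an RNA-binding protein that carries IGF2 mRNA, was at 433, 351, 520 and 487 in WT and 45.5, 39, 38.2 and 39.2 in Fam134bKO myoblasts, and its mean was 284 in WT and 48.3 in Fam134bKO myotubes. Mest, a paternally expressed gene, had means of 24.8 and 2.99 in WT and Fam134bKO myoblasts and 80.2 and 13.5 in myotubes. Igf2 itself, outside the rule, had a mean of 25.7 in WT and 0.208 in Fam134bKO myoblasts, and 277 and 68.7 in myotubes.

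Muscle structure and metabolism gave 7 members, among them Mb, Obsl1, Trim54, Fbxl22, Chchd10 and Aldoc. Mb encodes myoglobin, the oxygen store of muscle (chr15:77015487-77050670). It was at 177, 152, 131 and 149 in WT and 1.75, 0, 0 and 0.834 in Fam134bKO myoblasts, the largest difference of all members in myoblasts (6.67). In myotubes it was at 1863, 1857, 3334 and 2520 in WT and at 448, 515, 641 and 753 in Fam134bKO, and this difference of 2.0 was the smallest of all members. Trim54, or MuRF3, a ubiquitin ligase that binds microtubules and the sarcomere, was at 29.5, 12.5, 31 and 12.5 in WT and 0, 2.49, 0 and 0 in Fam134bKO myoblasts. It reached 186, 163, 185 and 114 in WT and 31.9, 30.6, 43.2 and 34 in Fam134bKO myotubes. Fbxl22, an F-box protein found at the Z-disc, was at 24.9, 27, 30 and 32.1 in WT and 2.62, 0, 4.34 and 2.5 in Fam134bKO myoblasts, and at 83.7, 164, 195 and 206 in WT and 27.1, 36.5, 27.9 and 30 in Fam134bKO myotubes. All 3 genes rose on differentiation in both genotypes (tests below), and their Fam134bKO myotube samples stayed below the WT myotube samples.

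Chchd10, a mitochondrial protein of the intermembrane space, was at 373, 315, 368 and 410 in WT and 31.5, 29.9, 41.6 and 38.4 in Fam134bKO myoblasts and at 928, 1073, 937 and 856 in WT and 121, 115, 143 and 106 in Fam134bKO myotubes. Its replicates were close together in every group, with an SD of 5.58 to 90.7 around means of 35.3 to 949. Obsl1, an obscurin-like cytoskeletal linker, had a mean of 141 in WT and 2.54 in Fam134bKO myoblasts, and 239 and 42.7 in myotubes. Aldoc, the brain form of aldolase, was at 23.1, 35.7, 17 and 26.7 in WT and 2.62, 2.49, 3.47 and 4.17 in Fam134bKO myoblasts and at 10.4, 29.7, 17.7 and 27.7 in WT and 1.94, 0, 0.90 and 0 in Fam134bKO myotubes. It is the member of this role with a larger difference in myotubes (3.76) than in myoblasts (2.64), and its WT level was low at both stages.

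**Figure D3:**
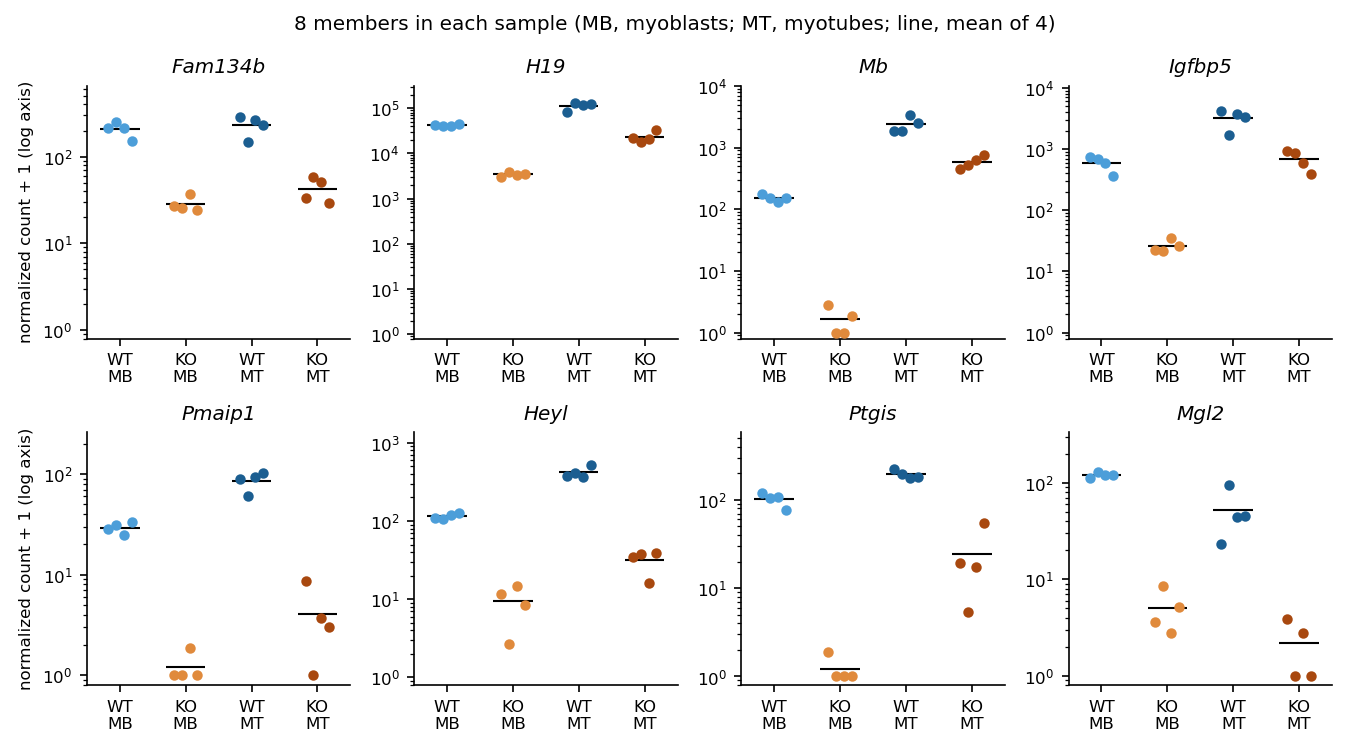
Normalized count plus 1 (log axis) of 8 members in each of the 16 samples, with points for samples and lines for the means of 4 samples; MB stands for myoblasts and MT for myotubes. In each panel the Fam134bKO points lie below the WT points of the same stage, and for Igfbp5 the Fam134bKO myotubes reach the level of WT myoblasts.

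Transcription, cell cycle and cell death gave 6 members: Pitx3, Heyl, Sox11, Cited1, Ccnd2 and Pmaip1. Pitx3, a homeodomain factor of muscle, lens and dopaminergic neurons, was at 24.9, 27, 30 and 31.2 in WT and 0, 1.66, 0.868 and 0 in Fam134bKO myoblasts. In myotubes it was at 35.4, 45.9, 40.9 and 37.6 in WT and at 0, 1.46, 0.90 and 14 in Fam134bKO, where replicate 4 stood above the other 3. Heyl, a bHLH repressor switched on by Notch, was at 108, 105, 120 and 124 in WT and 10.5, 1.66, 13.9 and 7.51 in Fam134bKO myoblasts and at 378, 416, 362 and 519 in WT and 33.9, 36.5, 15.3 and 38 in Fam134bKO myotubes. The groups were about equally far apart at both stages for Heyl, with differences of 3.87 and 3.78. Ccnd2, the cell cycle activator cyclin D2, was at 48, 58.8, 48 and 48.1 in WT and 2.62, 1.66, 0.868 and 6.67 in Fam134bKO myoblasts and at 31.9, 53.1, 57.6 and 51.5 in WT and 5.81, 0, 6.3 and 7.99 in Fam134bKO myotubes.

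Cited1, a co-activator that binds CBP and p300, was at 76.6, 58.8, 86.1 and 74 in WT and 6.12, 18.3, 10.4 and 9.18 in Fam134bKO myoblasts and at 24.2, 51.3, 38.1 and 35.7 in WT and 1.94, 0, 2.7 and 2.0 in Fam134bKO myotubes. It fell with differentiation in Fam134bKO cells, and its difference was larger in myotubes (3.96) than in myoblasts (2.72). Sox11, an SRY-box factor of progenitor cells, kept a high level in WT cells, with means of 723 in myoblasts and 604 in myotubes. In Fam134bKO cells the means were 57.7 and 132.

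Signalling gave 12 members, and 11 of them had their larger difference in myoblasts. Among ligands and receptors, Pdgfb, the B chain of platelet-derived growth factor, was at 53.5, 53, 73.1 and 48.1 in WT and 9.62, 6.64, 1.74 and 0 in Fam134bKO myoblasts and at 33.7, 27, 35.3 and 20.8 in WT and 1.94, 2.92, 1.8 and 0 in Fam134bKO myotubes. Gfra1, the co-receptor for the neurotrophic factor GDNF, was at 34.1, 28.9, 35 and 16.9 in WT and 1.75, 0, 1.74 and 0 in Fam134bKO myoblasts and at 27.6, 22.5, 37.2 and 29.7 in WT and 1.94, 1.46, 4.5 and 4.0 in Fam134bKO myotubes. Ptprf, or LAR, a receptor tyrosine phosphatase, was at 34.1, 28.9, 25 and 22.3 in WT and 0.875, 0, 1.74 and 0.834 in Fam134bKO myoblasts and at 172, 101, 112 and 80.2 in WT and 13.6, 23.3, 18 and 5.99 in Fam134bKO myotubes. WT samples of all 3 genes lay well above the Fam134bKO samples, though Gfra1 was low in every sample. Ackr3, an atypical receptor that scavenges the chemokine CXCL12, had means of 21.3 and 1.25 in WT and Fam134bKO myoblasts and 39.1 and 5.77 in myotubes.

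Inside the cell, Gnai1, an inhibitory G protein alpha subunit, was at 38.8, 41.5, 51 and 50.8 in WT and 1.75, 4.15, 2.6 and 1.67 in Fam134bKO myoblasts and at 15.5, 22.5, 22.3 and 28.7 in WT and 4.84, 0, 2.7 and 2.0 in Fam134bKO myotubes. Cdc42bpg, a kinase downstream of Cdc42, was at 36.9, 14.5, 22 and 22.3 in WT and 3.5, 0, 7.81 and 0 in Fam134bKO myoblasts and at 42.3, 32.4, 38.1 and 39.6 in WT and 4.84, 11.7, 1.8 and 2.0 in Fam134bKO myotubes. Spry1, an inhibitor of receptor tyrosine kinase signalling that is known from quiescent satellite cells, was at 19.4, 18.3, 17 and 29.4 in WT myoblasts and at 0 in all 4 Fam134bKO myoblast samples. Set against a floor of 3 reads per library, it was at least 8.23-fold higher in WT myoblasts, and in myotubes its means were 78.5 and 11.7. The chimaerins Chn1 and Chn2, which switch off Rac, had a Fam134bKO mean of 20.5% and 7.20% of WT in myoblasts and 21.6% and 24.8% in myotubes. For Sulf1, which trims heparan sulfate outside the cell, these shares were 5.42% and 13.5%, and for the planar polarity gene Prickle1 they were 18.5% and 19.6%.

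Adhesion, surface and cytoskeleton gave 7 members: Cd200, Cadm4, Lrrn1, St8sia2, Spock2, Epb41l4a and Frmpd1. Cd200, a surface glycoprotein that restrains myeloid cells through its receptor, was at 196, 201, 166 and 177 in WT and 9.62, 7.47, 14.7 and 7.51 in Fam134bKO myoblasts and at 471, 231, 371 and 406 in WT and 52.3, 24.8, 31.5 and 26 in Fam134bKO myotubes. Frmpd1, a scaffold with FERM and PDZ domains, was at 161, 117, 116 and 108 in WT and 1.75, 0, 1.74 and 0 in Fam134bKO myoblasts and at 136, 209, 191 and 183 in WT and 35.8, 13.1, 30.6 and 30 in Fam134bKO myotubes. Its difference of 6.24 in myoblasts was far from that of 2.74 in myotubes, as Fam134bKO myoblasts held at most 2 reads in a sample. Lrrn1, a neuronal leucine-rich repeat protein, was at 74.7, 86.8, 80.1 and 46.3 in WT and 0.875, 0.83, 2.6 and 0.834 in Fam134bKO myoblasts and at 370, 106, 221 and 300 in WT and 66.8, 56.9, 26.1 and 38 in Fam134bKO myotubes. St8sia2, which adds polysialic acid to the adhesion molecule NCAM, had means of 131 and 4.66 in myoblasts and 188 and 43 in myotubes, WT first.

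Cadm4, an immunoglobulin-like adhesion molecule, had the smallest difference in myoblasts (2.01). It was at 141, 84.9, 87.1 and 108 in WT and 32.4, 8.3, 49.4 and 27.5 in Fam134bKO myoblasts and at 95.8, 132, 199 and 127 in WT and 17.4, 51.1, 9.9 and 2.0 in Fam134bKO myotubes, with a wide spread in Fam134bKO myotubes. Spock2, a matrix proteoglycan, had a Fam134bKO mean of 7.93% of WT in myoblasts and 18.0% in myotubes.

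Enzymes and carriers of lipids and small molecules gave 8 members. Ptgis, the prostacyclin synthase, was at 117, 105, 106 and 75.8 in WT and 0.875, 0, 0 and 0 in Fam134bKO myoblasts, so that 1 read was counted over all 4 Fam134bKO samples. It was at 220, 195, 176 and 181 in WT and 18.4, 4.38, 16.2 and 54 in Fam134bKO myotubes, where replicate 4 of Fam134bKO stood highest and replicate 2 lowest. Alox5, the 5-lipoxygenase that starts leukotriene synthesis, was at 29.5, 36.6, 24 and 17.8 in WT and 0, 0, 0 and 0.834 in Fam134bKO myoblasts and at 40.6, 22.5, 26 and 25.8 in WT and 0, 0, 8.1 and 2.0 in Fam134bKO myotubes. Sec14l2, a lipid transfer protein that binds tocopherol, was at 66.4, 46.3, 74.1 and 60.6 in WT and 9.62, 4.15, 6.94 and 5.84 in Fam134bKO myoblasts and at 53.5, 98.1, 59.5 and 75.3 in WT and 6.78, 11.7, 5.4 and 9.99 in Fam134bKO myotubes. Ntpcr, a nucleoside triphosphatase, was at 29.5, 30.9, 37 and 41 in WT and 0, 10.8, 0.868 and 3.34 in Fam134bKO myoblasts and at 25, 36.9, 26 and 36.7 in WT and 3.87, 0, 1.8 and 4.0 in Fam134bKO myotubes. The groups were apart for these 4 genes, though Alox5 and Ntpcr rest on few reads in Fam134bKO cells.

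Mgll, the monoacylglycerol lipase that breaks down the endocannabinoid 2-AG, had a Fam134bKO mean of 3.90% of WT in myoblasts and 14.5% in myotubes. For the aldo-keto reductase Akr1c13 the shares were 5.72% and 19.9%. Gch1, which catalyses the first step of tetrahydrobiopterin synthesis, had the highest Fam134bKO share of WT in myotubes, with 19.4% and 29.0%. Reads of Akr1c13 are uncertain, since 36.8% of the stretches of 31 bases near its 3′ end also occur in Akr1c12 or other genes.

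Genes best known from immune cells gave 8 members: Mgl2, Plac8, Milr1, Ctsw, Apol9b, Tmem176b, Stxbp2 and Sigirr. Tmem176b, a transmembrane protein studied mainly in dendritic cells, was at 28.6, 22.2, 27 and 21.4 in WT and 1.75, 0.83, 0 and 0.834 in Fam134bKO myoblasts and at 60.4, 37.8, 37.2 and 37.6 in WT and 1.94, 11.7, 3.6 and 0 in Fam134bKO myotubes. Plac8, a small cysteine-rich protein, was at 83, 97.4, 93.1 and 145 in WT and 2.62, 3.32, 4.34 and 1.67 in Fam134bKO myoblasts and at 31.1, 41.4, 31.6 and 45.6 in WT and 8.71, 7.3, 9.9 and 2.0 in Fam134bKO myotubes. Stxbp2, or Munc18-2, which acts in the release of granules, was at 66.4, 55, 68 and 75.8 in WT and 13.1, 9.13, 15.6 and 9.18 in Fam134bKO myoblasts and at 23.3, 59.4, 36.2 and 47.6 in WT and 8.71, 0, 0 and 4.0 in Fam134bKO myotubes. The WT levels of Plac8 and Stxbp2 were lower in myotubes than in myoblasts on average.

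Apol9b, an apolipoprotein L, was at 539, 202, 370 and 500 in WT and 98, 41.5, 90.2 and 70.1 in Fam134bKO myoblasts and at 228, 447, 289 and 267 in WT and 31.9, 61.3, 36.9 and 34 in Fam134bKO myotubes, and 76.3% of the stretches of 31 bases near its 3′ end also occur in Apol9a, so its reads cannot be placed with certainty. Milr1, an inhibitory receptor of mast cells, Ctsw, the cathepsin of cytotoxic lymphocytes, and Sigirr, which dampens interleukin 1 signalling, had Fam134bKO means of 3.90%, 11.1% and 10.5% of WT in myoblasts. In myotubes these shares were 25.9%, 11.1% and 20.1%. The summed level of 8 macrophage markers was 123 to 139 in WT and 10.4 to 24.2 in Fam134bKO myoblasts, and 39.7 to 107 in WT and 4.0 to 29 in Fam134bKO myotubes, and Mgl2, a member chosen for that difference, is 1 of the 8. Without Mgl2 the sum was 9.01 to 11.1 in WT and 8.68 to 20 in Fam134bKO myoblasts, and 9.29 to 17.3 in WT and 4.0 to 26.1 in Fam134bKO myotubes, so the groups overlapped at both stages. Of these 7 markers, Adgre1 and Ptprc were at 0 in all 16 samples, while Csf1r had means of 2.34 in WT and 6.8 in Fam134bKO myoblasts and 4.09 and 11.5 in myotubes. Of 5 endothelial markers the summed level was at most 2.0 in any sample.

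The other 13 members have no common role. Ttyh3, a tweety-family membrane protein, was at 150, 122, 112 and 142 in WT and 2.62, 3.32, 2.6 and 5.01 in Fam134bKO myoblasts and at 242, 212, 229 and 225 in WT and 24.2, 49.6, 8.1 and 44 in Fam134bKO myotubes. Tmem121 was at 37.8, 47.3, 37 and 38.3 in WT and 0, 1.66, 0.868 and 0.834 in Fam134bKO myoblasts and at 55.3, 72.9, 66.9 and 60.4 in WT and 0.968, 20.4, 1.8 and 2.0 in Fam134bKO myotubes, where replicate 2 of Fam134bKO stood above the others. Syce2, a protein of the synaptonemal complex of meiosis, was at 30.4, 22.2, 30 and 38.3 in WT and 4.37, 0, 1.74 and 0.834 in Fam134bKO myoblasts and at 17.3, 30.6, 42.8 and 37.6 in WT and 0.968, 11.7, 0 and 7.99 in Fam134bKO myotubes. Each of these was higher in every WT sample than in any Fam134bKO sample of its stage.

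Uchl1, a ubiquitin hydrolase abundant in neurons, was at 90.4, 90.7, 130 and 132 in WT and 25.4, 21.6, 25.2 and 15.9 in Fam134bKO myoblasts and at 20.7, 69.3, 41.8 and 33.7 in WT and 13.6, 0, 5.4 and 7.99 in Fam134bKO myotubes. Grtp1, a TBC-domain protein, was at 43.4, 48.2, 31 and 50.8 in WT and 13.1, 4.15, 6.07 and 5.84 in Fam134bKO myoblasts and at 230, 143, 267 and 134 in WT and 57.1, 43.8, 46.8 and 30 in Fam134bKO myotubes. For Ndrg2 (an N-Myc downstream-regulated protein), Tpd52l1 (a relative of tumour protein D52), Kbtbd11 (a BTB-Kelch protein) and Pet2 the Fam134bKO mean was 12.2%, 8.33%, 7.72% and 2.80% of WT in myoblasts. In myotubes the shares were 22.5%, 21.0%, 22.3% and 21.2%. The antisense transcript 2900060B14Rik, opposite to Clasp1, varied widely among WT samples: it was at 179, 513, 239 and 129 in WT myoblasts and at 111, 73.8, 243 and 39.6 in WT myotubes, with Fam134bKO means of 50.9 and 23.3.

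The change from myoblasts to myotubes was not itself part of the rule, though it was measured in the same samples. It was tested with limma in each genotype. The rule set a minimum for the mean in both WT groups, which limits the WT changes that a member can show. The WT shares and median below therefore describe the members and are not a test against other genes. In WT cells, 17 of the 66 genes rose (25.8%, against 13.8% of all genes tested) and 2 fell (3.03%, against 9.16%), while 47 did not pass the threshold. The median change of the members was 0.43 on the log2 scale, against -0.01 for all genes tested. Myoglobin rose most, by 3.93 ± 0.28 (SE; adjusted p = 1.54e-09), followed by Trim54 (2.96 ± 0.40; 1.85e-05) and Igfbp5 (2.41 ± 0.29; 3.41e-06). Fbxl22 rose by 2.39 ± 0.40 (adjusted p = 1.85e-04) and Grtp1 by 2.09 ± 0.31 (5.82e-05). The genes that fell were Plac8, with -1.45 ± 0.38 (adjusted p = 0.00846), and Mgl2, with -1.4 ± 0.48 (0.0398), and the call for Mgl2 was lost when any 1 of 7 samples was left out, with an adjusted p of up to 0.159. The call for Cd200 was lost without replicate 1 of WT myotubes (adjusted p = 0.0594), and those for Mest, Prickle1, Obsl1 and Pmaip1 without any 1 of 2, 3, 7 and 7 samples, with an adjusted p of up to 0.0689, 0.0762, 0.101 and 0.0815. The fit shares 1 spread per gene among the groups, and with the 8 WT samples alone 29 members rose and 13 fell. The share of all genes tested in that fit is not given here, so nothing is read from these counts.

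In Fam134bKO cells, 32 of the 66 genes rose (48.5%, against 17.3% of all genes tested), 6 fell (9.09%, against 16.1%) and 28 did not pass. The median change was 1.1, against -0.02 for all genes tested. The rule fixed low levels in Fam134bKO cells, and 14 members had a mean under 1 in Fam134bKO myoblasts, so these shares describe the members and are not a test against other genes. Only 28 of the 66 reached a normalized count of 10 in 4 or more Fam134bKO samples, so the others passed the filter through WT samples. Myoglobin rose by 8.59 ± 0.28 (SE; adjusted p = 5.08e-16), from 3 reads in all Fam134bKO myoblasts to 353 to 713 in each myotube sample. Trim54 rose by 4.7 ± 0.40 (adjusted p = 1.41e-08), Igfbp5 by 4.68 ± 0.29 (5.03e-11), Lrrn1 by 4.37 ± 0.37 (1.17e-08) and Frmpd1 by 4.01 ± 0.36 (2.94e-08). The genes that fell were Stxbp2 with -2.24 ± 0.55 (adjusted p = 0.00328), Cited1 with -2.23 ± 0.40 (2.08e-04), Uchl1 with -2.07 ± 0.55 (0.00607), Aldoc with -1.43 ± 0.45 (0.0196), Mgl2 with -1.33 ± 0.48 (0.0373) and Apol9b with -0.83 ± 0.31 (0.0418). The call for Aldoc was lost without replicate 4 of Fam134bKO myoblasts (adjusted p = 0.0586), that for Mgl2 without any 1 of 4 samples (up to 0.12) and that for Apol9b without any 1 of 9 (up to 0.136). With only the 8 Fam134bKO samples, the calls for Aldoc and Apol9b were lost as well (adjusted p = 0.0917 and 0.0736, limma). The falls of Mgl2, from a mean of 4.0 to 1.18, and of Aldoc, from 3.19 to 0.709, rest on few reads. So do the rises of Akr1c13, Gfra1 and Pmaip1 given below. A Fam134bKO myoblast sample held at most 4, 2 and 1 reads of these 3 genes, and a Fam134bKO myotube sample at most 6, 5 and 8.

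The 17 genes that rose in WT cells also passed in Fam134bKO cells: H19, Mb, Cd200, Pmaip1, Igfbp5, Obsl1, Heyl, Ptprf, Lrrn1, Prickle1, Spry1, Grtp1, Chchd10, Fbxl22, Mest, Trim54 and Pnmal2. Of these, Pmaip1 and Prickle1 lost the call in Fam134bKO cells without any 1 of 5 and 4 samples (adjusted p up to 0.125 and 0.119), and with only the 8 Fam134bKO samples (0.167 and 0.139). A further 15 passed in Fam134bKO and not in WT cells, among them Tpd52l1, Ndrg2, Sulf1, Ptgis, Akr1c13, Gfra1, St8sia2, Mgll, Pet2, Frmpd1, Ttyh3, Spock2 and Sox11. The calls for Akr1c13, Gfra1 and Pet2 were lost without any 1 of 2, 12 and 7 samples (adjusted p up to 0.0596, 0.147 and 0.137). With only the 8 Fam134bKO samples these calls were lost too (adjusted p = 0.0791, 0.184 and 0.148, limma). With only the 8 WT samples, 10 of the 15 were called in WT cells as well. Ptgis changed by 0.94 ± 0.45 in WT (adjusted p = 0.142) and by 3.92 ± 0.45 in Fam134bKO cells (1.03e-06), and its WT change passed with the 8 WT samples (7.42e-04). Sox11 changed by -0.28 ± 0.21 (0.363) and 1.13 ± 0.21 (2.83e-04). Mgl2 fell in both, though its call in Fam134bKO cells was lost with only the 8 Fam134bKO samples (0.155), Plac8 passed in WT and not in Fam134bKO cells, and 27 genes passed in neither. Of the 5 genes that passed as lower in Fam134bKO and not in WT cells, Uchl1, Cited1 and Stxbp2 were called in WT cells with the 8 WT samples (adjusted p = 8.55e-04, 0.00417 and 0.0391). Whether the change differs between genotypes was not tested, since that difference is made of the contrasts that chose the genes. The shares of all genes tested with each of these patterns of calls are not given here, so nothing is read from the counts.

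**Figure D4:**
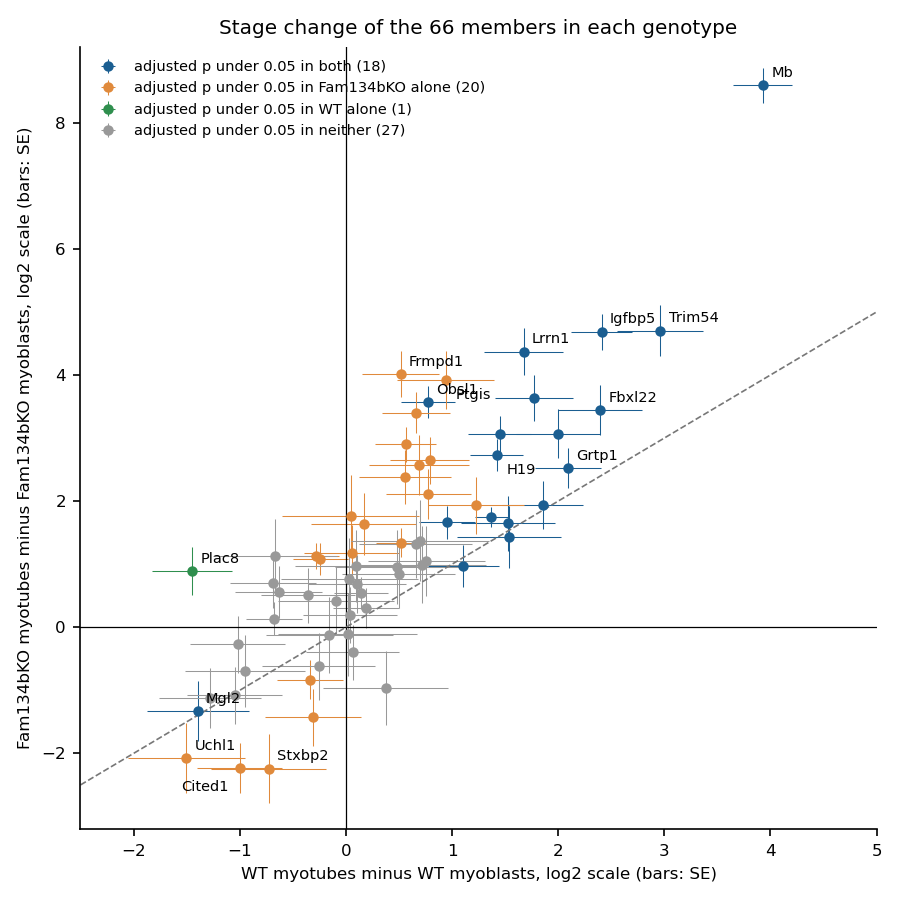
Change from myoblasts to myotubes on the log2 scale in WT (horizontal) and Fam134bKO cells (vertical) for the 66 members, with SE bars and colours by limma call at an adjusted p under 0.05; the dashed line marks equal change. The 18 genes called in both genotypes include Mb at the upper right, with 3.93 in WT and 8.59 in Fam134bKO cells, and Mgl2 at the lower left.

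By role, 5 of the 7 genes of muscle structure and metabolism rose in WT cells, and 6 of 7 rose and 1, Aldoc, fell in Fam134bKO cells, against 13.8% and 17.3% of all genes tested that rose. Of the 4 imprinted and IGF genes, H19, Mest and Igfbp5 rose in both genotypes, with H19 at 1.42 ± 0.25 in WT (adjusted p = 3.23e-04; 0.78 with quantile normalization) and 2.73 ± 0.25 in Fam134bKO cells (3.35e-08). Of the 8 lipid and small-molecule genes, Ptgis, Mgll and Akr1c13 were among those that rose in Fam134bKO cells, with few reads for Akr1c13. The lowest adjusted p of the 8 in WT cells was 0.142, that of Ptgis (limma). Of the 8 genes known from immune cells, Plac8 and Mgl2 fell in WT cells, and Stxbp2, Mgl2 and Apol9b fell in Fam134bKO cells. At an unadjusted p under 0.05, 28 of the 66 members (42.4%) passed in WT and 44 (66.7%) in Fam134bKO cells, against 35.4% and 43.7% of all genes tested. Since the rule constrained the levels in both genotypes, these shares too describe the members and are not a test against other genes. The roles were given after the values were known and nothing is read from their counts.

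Genes of 7 lists were tested between genotypes. The members Heyl, Obsl1, Trim54, Pmaip1 and Fam134b belong to 4 of the lists and were taken out, and the lists of surface and fusion, triad and calcium, and interferon response genes hold no member. Over all genes tested, 8.50% were lower and 7.26% higher in Fam134bKO myoblasts, and 13.7% were lower and 9.74% higher in Fam134bKO myotubes. Of 26 other myogenic regulators, 12 were lower in Fam134bKO myoblasts, and 10 were lower and 2 higher in myotubes. Myod1 was lower by a log2 difference of -4.81 in myoblasts (adjusted p = 9.54e-12) and -1.43 in myotubes (4.97e-04), and Myog by -6.82 in myoblasts (7.62e-16), while its difference in myotubes was -0.51 (0.0892). By real-time PCR over a time course of differentiation, the paper reports more Myog and Myh1 mRNA in Fam134bKO than in control cells. For myosin heavy chain protein (MF20), it reports a later start and a higher level in Fam134bKO cells. Why these measurements and the counts here differ was not tested. Of 27 surface and fusion genes, 11 were lower and 2 higher in myoblasts, and 9 and 1 in myotubes, with the fusion protein Tmem8c (Mymk) at -6.71 (2.35e-15) and -1.32 (2.55e-04).

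Of 42 other sarcomere and Z-disc genes, which the members Obsl1 and Trim54 belong with, 23 were lower and 1 higher in myoblasts, and 26 were lower in myotubes. The median difference was -1.56 and -1.27. Of 25 triad and calcium genes, 16 were lower and 1 higher in myoblasts and 20 were lower and 1 higher in myotubes, with medians of -1.23 and -1.32. The medians over all genes tested were -0.01 and -0.07.

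Of 26 other p53 targets, the list of the member Pmaip1, 2 were lower and 8 higher in Fam134bKO myoblasts, and 2 were lower and 11 higher in myotubes. Perp, a membrane protein of desmosomes and apoptosis, was higher by 4.25 (adjusted p = 4.42e-09) and 5.21 (1.24e-09), and the CDK inhibitor Cdkn1a was lower, at -0.79 (6.14e-04) and -0.76 (9.34e-04). Of 18 interferon response genes, 1 was lower and 5 were higher at each stage. Of 11 other ER-phagy receptors, 2 were higher at each stage, Ccpg1 and Atl3 in myoblasts and Atl3 and Calcoco1 in myotubes, with Atl3 at 0.46 (0.0292) and 0.94 (5.87e-05). Over all genes tested, 2946 in myoblasts and 3844 in myotubes were at an unadjusted p under 0.05.

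**Figure D5:**
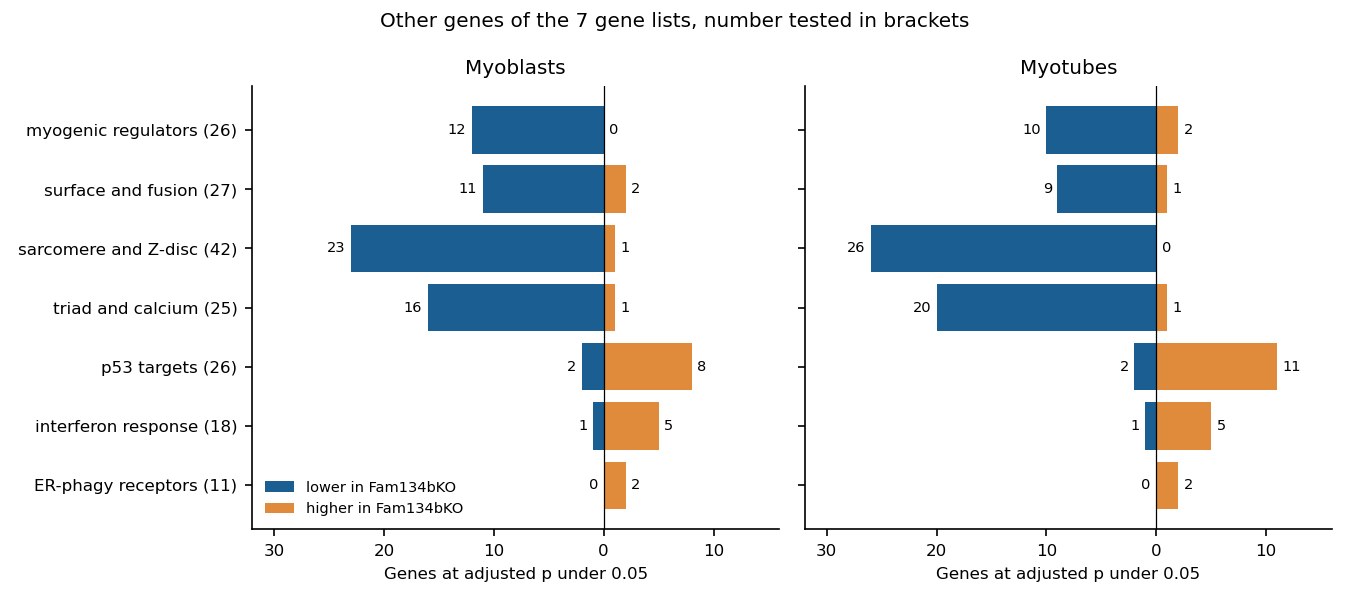
Number of genes at an adjusted p under 0.05 that were lower (left of 0) or higher (right of 0) in Fam134bKO than in WT cells, for the genes of 7 lists that are not members, in myoblasts and myotubes; the number tested is in brackets. In the muscle lists most calls lie on the lower side, with 26 lower for sarcomere and Z-disc genes in myotubes, and in the p53 list most lie on the higher side.

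The 66 members lie on 19 chromosomes, with at most 7 on 1 chromosome, and 64 are protein-coding. Of 178 other tested genes within 100 kb of a member, 11 (6.18%) were lower in Fam134bKO cells at both stages, against 4.59% of all 10695 tested genes with a known location that are not members. Next to H19 lie Igf2 (-4.51 in myoblasts and -1.97 in myotubes), Tnnt3 (-6.24 and -2.07) and Lsp1 (-0.86 and -1.4). Tnnt3 met the thresholds of the rule and was left out by its symbol alone, so nothing is read from its low values. Next to Igfbp5 lies Igfbp2 (-2.83 and -1.23), and next to Cdc42bpg lies Pygm, the muscle glycogen phosphorylase (-1.88 and -2.19). Kbtbd12 lies next to Mgll (-3.09 and -4.17) and Chrna1 next to Chn1 (-3.35 and -0.97). The others of the 11 are Rnf217, Ethe1, Gtf3c2 and Mpv17. Only 3 pairs of members lie within 1 Mb of each other: Mb and Apol9b, Ctsw and Cdc42bpg, and Ackr3 and Ramp1.

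For 12 members a protein-coding gene overlaps on the opposite strand (for example Apol6 with Mb, Elovl3 with Pitx3, Copg2 with Mest and Lamp1 with Grtp1). Whether the counting used strand is not given in the sources used here, so reads of the partners could not be told apart.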

How the data were processed

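Libraries came from a digital mRNA-seq service and were read from one end. Per the labels and the study's methods, the authors trimmed the reads, removed ribosomal RNA and phiX, aligned them with STAR 2.6.0a to mm10 and counted them on genes with HTSeq; the tool behind the normalization is not given in the sources used here. The deposited values are log2 values of a normalized count plus 1: raised back and reduced by 1, each was a whole multiple of 1 step per sample (within 0.01 of a whole read), which gave the reads per gene. These total 1484750 to 3287461 per sample, and limits in reads cover counting error only.

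The members and the gene lists were chosen with earlier results of these data known. limma 3.58.1 (R 4.3.3; lmFit, contrasts.fit, eBayes with trend) was run on the 10767 genes for which 4 or more of the 16 samples had a normalized count of 10 or above, with 4 group means in 1 model and no covariates. A gene was called where its p, adjusted by Benjamini-Hochberg over these genes, was under 0.05. The procedure was tested on simulated data. If the samples of a group came from 1 culture, p-values measure a technical spread. Values in every sample are given for Fam134b, the 25 members with the largest smaller difference, the 5 largest called stage changes each way and the members at the threshold; other members are given by means or shares. H19, Igf2bp2, Spry1 and 2900060B14Rik were added to these after their values were seen. Results for 2 members are not reported here, though counts over the 66 include them. Promoters are those of RefSeq (GRCm38.p6), and locations and the shared 3′ sequences come from GENCODE M21. Alternatives were other thresholds of the rule, pseudocounts of 0.5 and 5 in place of 1, filters, scalings, the replicate block, only the 8 samples compared, sample weights, voom on the recovered reads, and each sample left out in turn. A fit without the shallow Fam134bKO myotubes was chosen after seeing the data.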

Additional observations from a re-analysis of the deposited data

Results flagged for a closer look

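In 15 of the 232 groups of 4 samples examined (6.47%), 1 sample of a member stood apart from the other 3 by Dixon's test at the 95% level, which chance does in about 1 of 20 groups. In WT myoblasts these were replicate 2 for Ccnd2 (58.8, the others 48.0 to 48.1), Ackr3 (29.9) and Tmem121 (47.3), all high, and replicate 4 for Sox11 (656), low. In WT myotubes, replicate 1 was low for Ndrg2 (237) and high for Tmem176b (60.4) and Gch1 (73.4). In Fam134bKO myoblasts, replicate 1 was high for Igf2bp2 (45.5), and replicate 4 was high for Milr1 (3.34) and low for Mest (1.67). In reads, these samples held 2, 2, 2 and 4 for Milr1 and 4, 4, 4 and 2 for Mest. The rate of about 1 of 20 does not hold for such tied small counts. In Fam134bKO myotubes, the shallow replicate 2 was low for Ccnd2 (0), Milr1 (0) and Chn1 (4.38), replicate 3 was low for Heyl (15.3), and the shallow replicate 4 was high for Prickle1 (42.0). All values are normalized counts.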

How the results depend on the processing

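The rule found 66 genes as written, 123 with a threshold of 1.5, 20 with a threshold of 3, 167 without the minimum in WT cells and 31 with a minimum of 50. It found 59 with medians, 63 to 66 under other scalings, 72 and 47 with pseudocounts of 0.5 and 5, and 64 to 70 with 1 sample left out, and 45 members were found with every sample left out in turn. Without the 2 shallow Fam134bKO myotube samples it found 70, of which 58 were members. Members called between WT stages numbered 19 (17 higher and 2 lower), and 42 with only the 8 samples compared, 32 with sample weights, 33 with voom and 29 without the shallow samples, against 14 to 26 with 1 sample left out, and quantile normalization gave 17 higher and 5 lower. In Fam134bKO cells 38 were called, and 33 to 42 with 1 sample left out. The count there was 30 with only the 8 samples compared, 30 with voom and 42 with sample weights. Of the 57 called stage changes, 43 were kept with every sample left out in turn. The change of Gch1 in Fam134bKO cells, -0.11, ran from -0.60 to 0.98 with 1 sample left out, the latter without replicate 4 of Fam134bKO myotubes, which held 0 reads. Genes called between genotypes in myoblasts numbered 1697, and 2656 with only the 8 samples compared, 3773 with sample weights, 1041 at an adjusted p under 0.01 and 1018 with a log2 change of at least 1. In myotubes they numbered 2521, and 1565 with only the 8 samples compared, 1349 at an adjusted p under 0.01 and 1379 with a log2 change of at least 1. The causes of these shifts were not tested.

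With the replicate number as a replicate block, 18 members were called in WT and 37 in Fam134bKO cells, and 1678 and 2513 genes between genotypes in myoblasts and myotubes. Deviations of same-numbered samples correlated at -0.223 to 0.369 over 24 pairs, and 7 of the 16 samples were closest to their own number, so the numbers were not taken to pair the samples. Depth limits values of a few reads, above all in replicates 2 and 4 of Fam134bKO myotubes.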
